A study of Mus musculus with 4 samples.

Results

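The lymphoid priming genes are 10 mouse genes whose transcripts appear in blood progenitors before or as they turn towards B and T cells: Dntt, Flt3, Il7r, Rag1, Rag2, Satb1, Ccr9, Notch1, Sox4 and Ikzf1. They were read from all probe sets, the groups of short probes that read 1 transcript on an Affymetrix array, whose annotation names exactly 1 of these symbols. There were 30 such probe sets among the 45037 used, and they covered all 10 genes of 18193 with a probe set of their own. Each of 4 mouse cell populations was measured on 1 single-colour array, in a study of which cells serve as nuclear donors for cloning. Granulocytes, which no longer divide, came from bone marrow cells gated on high granularity and strong Gr-1 (99.4% pure by morphology). Beads against c-Kit enriched the cells for the remaining 3 gates, which excluded staining for the lymphoid antigens B220, CD3, CD4 and CD8, the myeloid antigens Gr-1 and CD11b, and Ter119. Haematopoietic progenitor cells (HPC) were the LKS- gate, long-term repopulating stem cells (LT-HSC) the CD34-LKS gate and short-term repopulating stem cells (ST-HSC) the CD34+LKS gate. Each array holds the RNA of 1 pool of 50 to 200 thawed cells chosen by their morphology. LKS stands for lineage-negative, c-Kit positive and Sca-1 positive. No genotype or agent separates the groups. The sources used here do not give strain or age.

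B and T cells build their antigen receptors by cutting and rejoining gene segments. The Rag1 and Rag2 proteins together make the cut, and terminal transferase, the product of Dntt, adds untemplated bases to the cut ends. Early lymphoid progenitors within the c-Kit and Sca-1 positive gate are known for the cytokine receptor Flt3 and for low-level transcription of such genes, a state called lymphoid priming, while the interleukin 7 receptor (Il7r), the thymus-homing receptor Ccr9 and Notch1 act as cells commit to the B or T lineage. Ikaros (Ikzf1), Satb1 and Sox4 are nuclear proteins that control this step.

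The sequences just upstream of 4 members are shown because Dntt separated granulocytes from the rest most widely among the 10 genes, and because Rag1, Rag2 and Ccr9 were the members higher in LT-HSC than on each other array. Each is the 250 bases before the annotated start in RefSeq (GRCm38.p6), read 5′ to 3′ on the gene's strand. Capitals mark the E-box pattern CANNTG, the core bound by E proteins such as E2A, and GGGAA on either strand, the core of Ikaros sites.
Dntt: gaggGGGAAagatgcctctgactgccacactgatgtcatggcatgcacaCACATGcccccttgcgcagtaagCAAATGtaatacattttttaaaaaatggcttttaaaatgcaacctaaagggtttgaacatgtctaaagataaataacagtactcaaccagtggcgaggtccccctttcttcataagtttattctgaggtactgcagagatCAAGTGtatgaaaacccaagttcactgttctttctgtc
Rag1: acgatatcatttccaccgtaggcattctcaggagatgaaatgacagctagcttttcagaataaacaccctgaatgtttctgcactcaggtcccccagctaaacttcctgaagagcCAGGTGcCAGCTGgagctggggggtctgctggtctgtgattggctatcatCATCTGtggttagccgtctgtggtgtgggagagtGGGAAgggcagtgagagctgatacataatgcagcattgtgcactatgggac
Rag2: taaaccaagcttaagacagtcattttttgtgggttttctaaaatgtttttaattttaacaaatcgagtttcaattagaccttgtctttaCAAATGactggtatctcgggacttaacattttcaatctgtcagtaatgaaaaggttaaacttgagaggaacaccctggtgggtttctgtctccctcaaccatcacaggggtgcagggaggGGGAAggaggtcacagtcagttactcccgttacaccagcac
Ccr9: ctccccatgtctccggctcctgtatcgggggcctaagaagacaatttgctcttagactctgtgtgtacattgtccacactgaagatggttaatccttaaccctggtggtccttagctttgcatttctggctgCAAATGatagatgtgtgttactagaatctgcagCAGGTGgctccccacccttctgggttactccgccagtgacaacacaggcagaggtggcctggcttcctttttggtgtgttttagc
The windows lie at chr19:41029025-41029274 on the plus strand for Dntt, chr2:101649533-101649782 on the minus strand for Rag1, chr2:101624462-101624711 on the plus strand for Rag2 and chr9:123766961-123767210 on the plus strand for Ccr9. CANNTG occurred 3 times in the Dntt window, 3 times in the Rag1 window, 1 time in the Rag2 window and 2 times in the Ccr9 window. GGGAA occurred 1 time each in the windows of Dntt, Rag1 and Rag2 and 0 times in that of Ccr9. Such matches are common, since 66.2% of all 32851 promoter windows of this length held CANNTG and 56.2% held GGGAA. All 10 members had a window in RefSeq, 15 windows in all, of which 9 held CANNTG and 11 held GGGAA. Both strands were searched, a match of one pattern may share a letter with a match of the other, and a match describes the letters only.

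The arrays share 1 scale, with a 2% trimmed mean of 500.00 each, and signals are linear intensities. Signals under 120.1, here called the floor and equal to the median over the values of all arrays, were treated as unmeasured. Between 48.7% and 52.5% of probe sets lay above it. The 15 probe sets for bacterial genes reached at most 138 on the granulocyte array and 52.5 to 90.3 on the others. Because every population has a single array, no difference below was tested, and precision is limited by that number. The spread between probe sets of the same gene was the only yardstick. Its SD was 0.85 log2 units where granulocytes were set against the rest (2874 genes). It was 0.57 where HPC were set against the stem cell arrays (3511 genes) and 0.64 between the stem cell arrays (3875 genes). For single pairs of arrays it ran from 0.63 (HPC against LT-HSC) to 0.95 (granulocytes against ST-HSC). Probe sets of 1 gene share a pool and an array, so this spread does not measure variation between pools. In sorted pools, fewer cells with a transcript and less transcript per cell cannot be told apart. Of the 10 granulocyte markers examined, 10 lay above the floor in granulocytes, 2 in HPC, 2 in ST-HSC and 6 in LT-HSC. Of 11 measured stem cell markers, 11 lay above it in both stem cell arrays, 10 in HPC and 4 in granulocytes.

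Of the 30 member probe sets, 25 lay above the floor on at least 1 array, 11 lay above it on all 4 and 5 on none. The 5 were 2 of 5 for Ccr9, 2 of 8 for Sox4 and 1 of 2 for Il7r. Where a gene has several, the one brightest on average (mean log2 signal) represents it below, with the others given beside it.

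**Figure D1:**
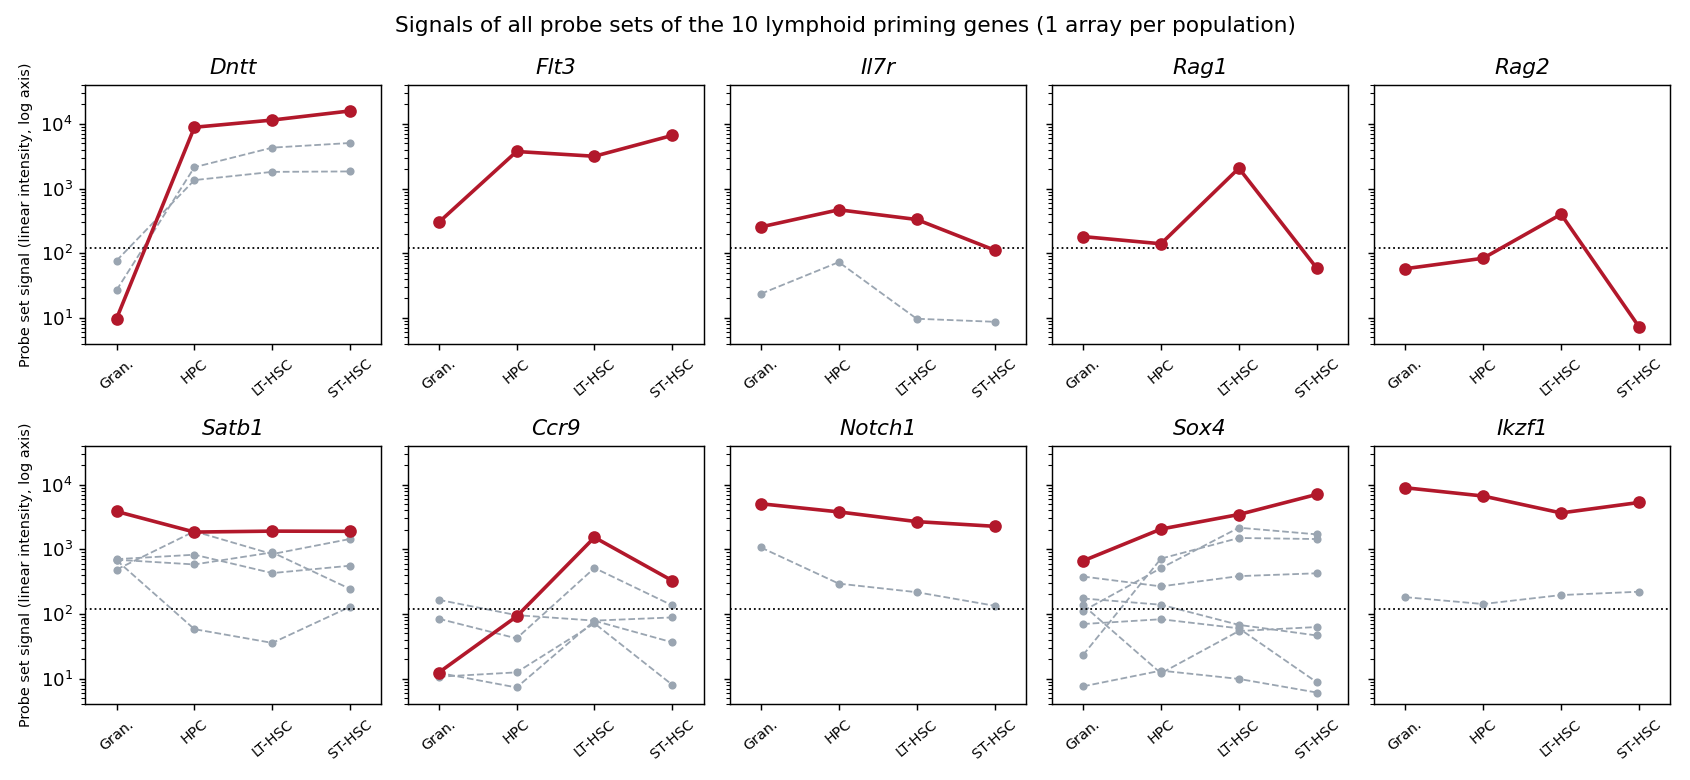
Probe set signal (linear intensity on a log axis) of every probe set of the 10 genes in granulocytes (Gran.), HPC, LT-HSC and ST-HSC, with the representing probe set in red, the others in grey and the floor of 120.1 dotted. Each point is 1 array and the lines only join points of 1 probe set. Dntt drops to 9.7 in granulocytes, and Rag1, Rag2 and Ccr9 peak in LT-HSC.

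The genes of antigen receptor rearrangement split into a broad pattern for Dntt and a narrow one for Rag1 and Rag2. Dntt had a signal of 9.7 in granulocytes and 8862 in HPC, with 11455 in LT-HSC and 15859 in ST-HSC. Dntt was thus bright on every c-Kit positive array, HPC included, and unmeasured in granulocytes. The granulocyte signal was at least 73.8-fold lower than in HPC, at least 95.4-fold lower than in LT-HSC and at least 132-fold lower than in ST-HSC. The other Dntt probe sets gave the same order, with 76.6, 1351, 1811 and 1839 in one and 26.8, 2138, 4291 and 5063 in the other (arrays as above). Their smallest differences were at least 11.2-fold and at least 17.8-fold, so the size of the Dntt difference depended on the probe set while its direction did not. The brightest of them has the suffix _x_at, which marks probes that may also bind other transcripts. Between the c-Kit positive arrays the representing probe set differed by less than 2-fold. ST-HSC was 1.38-fold above LT-HSC and LT-HSC 1.29-fold above HPC, both within the yardstick. ST-HSC was 1.79-fold above HPC, beyond the yardstick for that pair. In one of the other probe sets HPC was 2.01-fold below LT-HSC and 2.37-fold below ST-HSC.

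Rag1 had a signal of 180.8 in granulocytes and 139.9 in HPC, with 2062 in LT-HSC and 58.7 in ST-HSC. In LT-HSC it was 11.4-fold that of granulocytes, 14.7-fold that of HPC and at least 17.2-fold that of ST-HSC. Rag1 in granulocytes and HPC lay just above the floor, and those arrays differed by 1.29-fold, within the yardstick. Rag2 had a signal of 57.6 in granulocytes and 83.6 in HPC, with 400.5 in LT-HSC and 7.3 in ST-HSC. Rag2 was measured in LT-HSC only, at least 3.33-fold above each of the other arrays. Rag1 and Rag2 were each read by 1 probe set, so neither has a second reading. With the floor raised to the pooled 75th percentile of 431, Rag2 was unmeasured on all arrays, while Rag1 was still 2.26 log2 units higher in LT-HSC than in ST-HSC.

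Among the receptors, Flt3, the receptor tyrosine kinase that marks lymphoid-primed multipotent progenitors, had a signal of 299.6 in granulocytes and 3740.5 in HPC, with 3156 in LT-HSC and 6634 in ST-HSC. Granulocytes were 12.5-fold below HPC, 10.5-fold below LT-HSC and 22.1-fold below ST-HSC. HPC and LT-HSC differed by 1.19-fold, within the yardstick. ST-HSC was highest, 2.10-fold above LT-HSC, and this difference was 0.88 log2 units, under 2-fold, after scaling to the hybridization controls. Flt3 has 1 probe set. Il7r, the alpha chain of the interleukin 7 receptor, had a signal of 255 in granulocytes and 469 in HPC, with 332 in LT-HSC and 111.6 in ST-HSC. Il7r was thus dim throughout and unmeasured in ST-HSC, where it was at least 3.91-fold below HPC, at least 2.77-fold below LT-HSC and at least 2.12-fold below granulocytes. Its other probe set lay between 8.7 and 72.8, under the floor on all arrays. The median over both probe sets put LT-HSC 0.73 log2 units above ST-HSC.

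Ccr9, the chemokine receptor that guides progenitors to the thymus, had a signal of 12.4 in granulocytes and 91.5 in HPC, with 1529 in LT-HSC and 326 in ST-HSC. Ccr9 was measured in both stem cell populations and was highest in LT-HSC, 4.69-fold above ST-HSC and at least 12.7-fold above HPC and granulocytes. ST-HSC was at least 2.72-fold above HPC. A second probe set gave 84.4, 41.9, 514 and 135.5, again highest in LT-HSC. Of the other Ccr9 probe sets, both that lay under the floor on all arrays also had their highest value in LT-HSC, at 78.4 and 71.5. The last exceeded the floor in granulocytes only, at 165. The representing probe set has the suffix _x_at, and the difference between LT-HSC and ST-HSC was 0 when probe sets with a suffix were left out, when the first probe set by name was taken, or with the median over probe sets.

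Notch1, the receptor whose signal directs progenitors to the T lineage, had a signal of 5059 in granulocytes and 3786 in HPC, with 2679 in LT-HSC and 2267 in ST-HSC. Neighbours in this order differed by 1.34-fold, 1.41-fold and 1.18-fold, each within the yardstick. Granulocytes were 2.23-fold above ST-HSC. The second Notch1 probe set ran in the same order, with 1066, 294.5, 217 and 134, and there granulocytes were 3.62-fold above HPC. With that probe set, the first by name, the smallest granulocyte difference was 1.86 log2 units, and after scaling to the hybridization controls the representing probe set gave 0.

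Of the nuclear regulators, Sox4 followed the direction of Dntt and Flt3, whereas Ikzf1 and Satb1 were bright in granulocytes. Sox4 had a signal of 662.6 in granulocytes and 2054 in HPC, with 3450.5 in LT-HSC and 7057 in ST-HSC. Granulocytes were 3.10-fold below HPC, 5.21-fold below LT-HSC and 10.6-fold below ST-HSC. Another Sox4 probe set gave 23.2, 718, 1496 and 1440 and a further one 111.2, 512, 2157 and 1702, so that 3 of 8 placed granulocytes lowest by at least 2-fold. In those 3, HPC lay below both stem cell arrays by 1.68-fold, 2.01-fold and 3.33-fold. The order of the stem cell arrays did not hold across them. ST-HSC was 2.05-fold above LT-HSC in the representing probe set, while the other two had LT-HSC above ST-HSC by 1.04-fold and 1.27-fold. The remaining Sox4 probe sets reached at most 425.5 on any array and none placed granulocytes lowest by 2-fold.

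Ikzf1, which encodes the zinc finger protein Ikaros, had a signal of 8945 in granulocytes and 6661 in HPC, with 3648 in LT-HSC and 5293 in ST-HSC. All populations were bright, and granulocytes were 2.45-fold above LT-HSC, the lowest. The other steps between neighbours in the order were within the yardstick. The second Ikzf1 probe set lay between 142.5 and 221 and had ST-HSC highest. Satb1, a chromatin organizer, had a signal of 3850 in granulocytes and 1846.5 in HPC, with 1909 in LT-HSC and 1896 in ST-HSC. The c-Kit positive arrays differed by at most 1.03-fold, and granulocytes were 2.08-fold, 2.02-fold and 2.03-fold above HPC, LT-HSC and ST-HSC. The 5 Satb1 probe sets did not share an order. Of these, 2 had granulocytes at least 2-fold above each other array, and 1 had granulocytes lowest, at 486 against 1895, 843 and 1445.5. The Satb1 difference was 0.43 log2 units after scaling to the hybridization controls, 0.98 after quantile normalization and 0 with the median over probe sets.

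Granulocytes were compared with each of the other arrays to see how far these genes separate the differentiated donor cells from the stem and progenitor donors. Dntt, Flt3 and Sox4 were at least 2-fold lower in granulocytes than on every other array, and Satb1 was at least 2-fold higher. The 3 lower members of 10 stand beside 16.0% of 14292 genes above the floor on at least 1 array that were as far lower, and the 1 higher member beside 11.1%. The median difference of the 10 members from the mean of the other arrays was -0.71 log2 units, against -0.04 for all genes. Without the LT-HSC array the counts were again 3 and 1, though leaving out a reference array cannot lower such a count. With the hybridization controls or quantile normalization for scaling, 0 members were higher.

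HPC were set against both stem cell arrays to see which genes separate the Sca-1 negative progenitors from the stem cell gates. Ccr9 was at least 2.72-fold lower in HPC, and 0 members were 2-fold higher. The Ccr9 call held in 4 of 8 alternatives and was 0 with the floor at the 75th percentile, the median over probe sets, the first probe set by name or probe sets without a suffix. Its second probe set put HPC at least 1.13-fold below ST-HSC. Of 13079 genes, 3.66% were as far lower and 2.90% as far higher. The members' median difference was -0.45 log2 units, against 0.04 for all genes. Against ST-HSC alone, without the LT-HSC array, 2 members were lower in HPC (Ccr9 and Sox4), beside 8.84% of genes, and 1 was higher (Il7r), beside 9.33%.

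LT-HSC and ST-HSC were compared to see how the stem cell gates, which differ in CD34, differ from each other. Rag1, Rag2, Ccr9 and Il7r were at least 2-fold higher in LT-HSC, and Flt3 and Sox4 were at least 2-fold lower. The 4 higher members of 10 stand beside 10.4% of 12268 genes and the 2 lower members beside 7.91%. The median of the 10 was 0.13 log2 units, against -0.0036 for all genes. Scaled to the hybridization controls, 0 members were 2-fold lower in LT-HSC, with Flt3 at -0.88 and Sox4 at -0.84 log2 units, and Sox4 was 0.055 with the first probe set by name. At 4-fold, 2 members were higher (Rag1 and Ccr9) and 0 were lower. Set against each other array, Sox4 was at least 2-fold higher in ST-HSC (1 of 10, beside 1.80% of 14292 genes), in its representing probe set only. Il7r was at least 2-fold lower in ST-HSC (1 of 10, beside 1.38%).

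**Figure D2:**
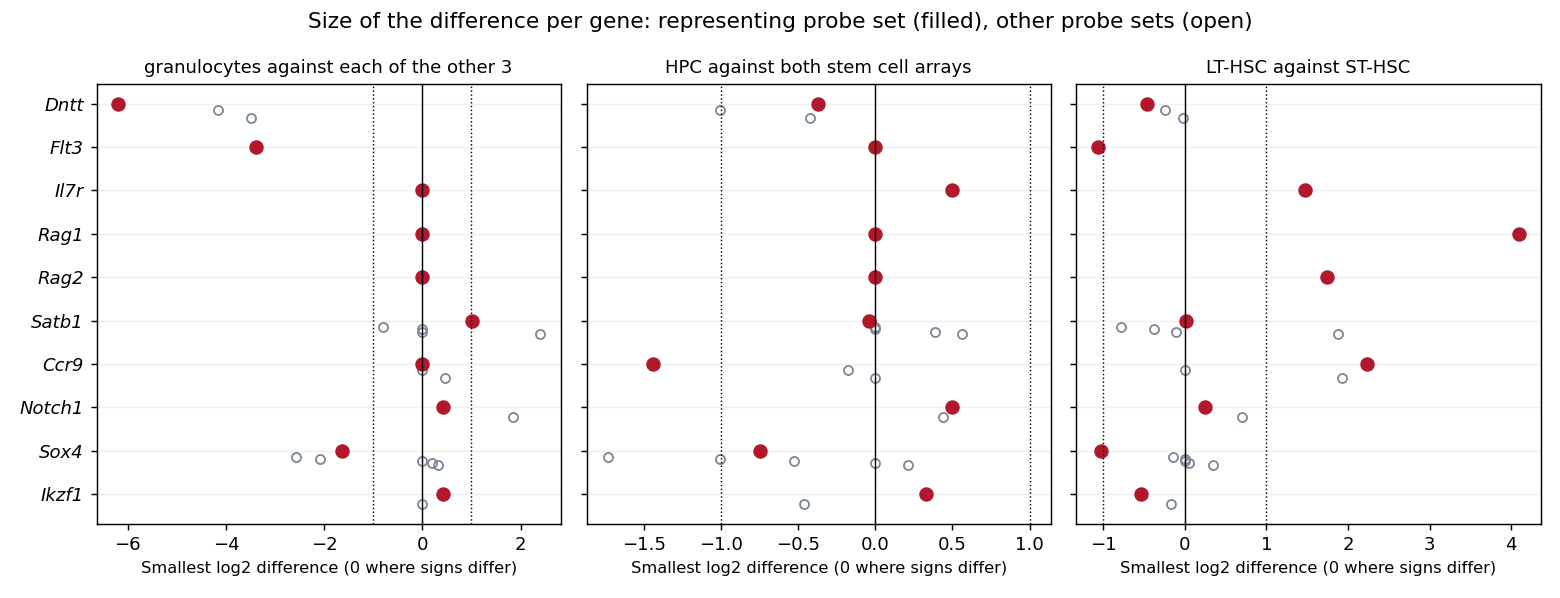
Smallest log2 difference of each gene in the 3 comparisons (x axis, in log2 units, 0 where signs differ), with the representing probe set filled and other probe sets that exceeded the floor open. Dotted lines mark 2-fold. Dntt and Flt3 stand at -6.21 and -3.40 in the granulocyte panel, Rag1 at 4.10 in the LT-HSC panel, and the open points of Sox4 and Satb1 scatter to both sides of 0.

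Rag1, Rag2 and Ccr9 were also at least 2-fold higher in LT-HSC than on each of the other 3 arrays, a comparison added after the values were seen. The 3 members of 10 stand beside 2.40% of 14292 genes, and 0 members were as far lower, beside 0.735%. Some markers of other cells were also bright on this array, and others were not. Of 12 measured B-lineage markers, 10 lay above the floor in LT-HSC, 8 in HPC, 6 in granulocytes and 3 in ST-HSC, and their summed signals were 28371, 12399, 2968 and 1996. The surrogate light chain gene Vpreb1 had 28.4 in granulocytes and 2532 in HPC, with 4815 in LT-HSC and 15 in ST-HSC. The B-cell adaptor gene Blnk had 901, 4704, 14001 and 1027, and was the largest part of the B-lineage sum on every array. Both genes were brighter in LT-HSC than in HPC. Rag1 was at 139.9 in HPC and 2062 in LT-HSC, and Rag2 lay under the floor in HPC. Among markers of later B cells, Ms4a1 and Fcer2a lay under the floor on all 3 c-Kit positive arrays, Cd22 lay just above it on all 3, between 129 and 187, and Cr2 exceeded it in LT-HSC only, at 127. Of 12 T cell markers with a probe set, 9 were measured on at least 1 array. Above the floor lay 5 in LT-HSC, 8 in HPC, 6 in ST-HSC and 6 in granulocytes, with summed signals of 2933, 2822, 2524 and 6220. The granulocyte sum was mostly Cd3d, at 3890. Cd2 and Cd8a, of 7 above the floor in either stem cell array, were 2.06-fold and 2.02-fold higher in LT-HSC than in ST-HSC. Of the T cell receptor partner genes, Cd3e, Cd3d and Cd3g lay between 40.2 and 69.6 in LT-HSC, whereas Cd247 was highest there, at 351 against at most 239. The T cell signalling genes Zap70 and Lat had 842 and 785 in LT-HSC. Granulocyte markers summed to 22755 in LT-HSC against 611 in HPC and 658 in ST-HSC, with S100a8 at 6783 and Lcn2 at 3332 but Mmp8, Mmp9, Itgam and Cxcr2 under the floor. Natural killer cell markers summed to 1872 in LT-HSC and 1388 to 2599 elsewhere, with Gzma alone of 7 at least 2-fold higher than on every other array, at 918 against at most 244.5. Of 6 plasmacytoid dendritic cell markers, 3 were at least 2-fold higher in LT-HSC than in ST-HSC, and 2 of these than on each other array, Pacsin1 at 354 against at most 158 and Ly6d at 916 against at most 431. Their sums of 7225 in LT-HSC, 7463 in HPC, 3498 in ST-HSC and 1444 in granulocytes were mostly Tcf4 on the c-Kit positive arrays. Rag1, Rag2 and Ccr9 were at 180.8, 57.6 and 12.4 in granulocytes. The part of other cells in the LT-HSC signals of these members was not tested.

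**Figure D3:**
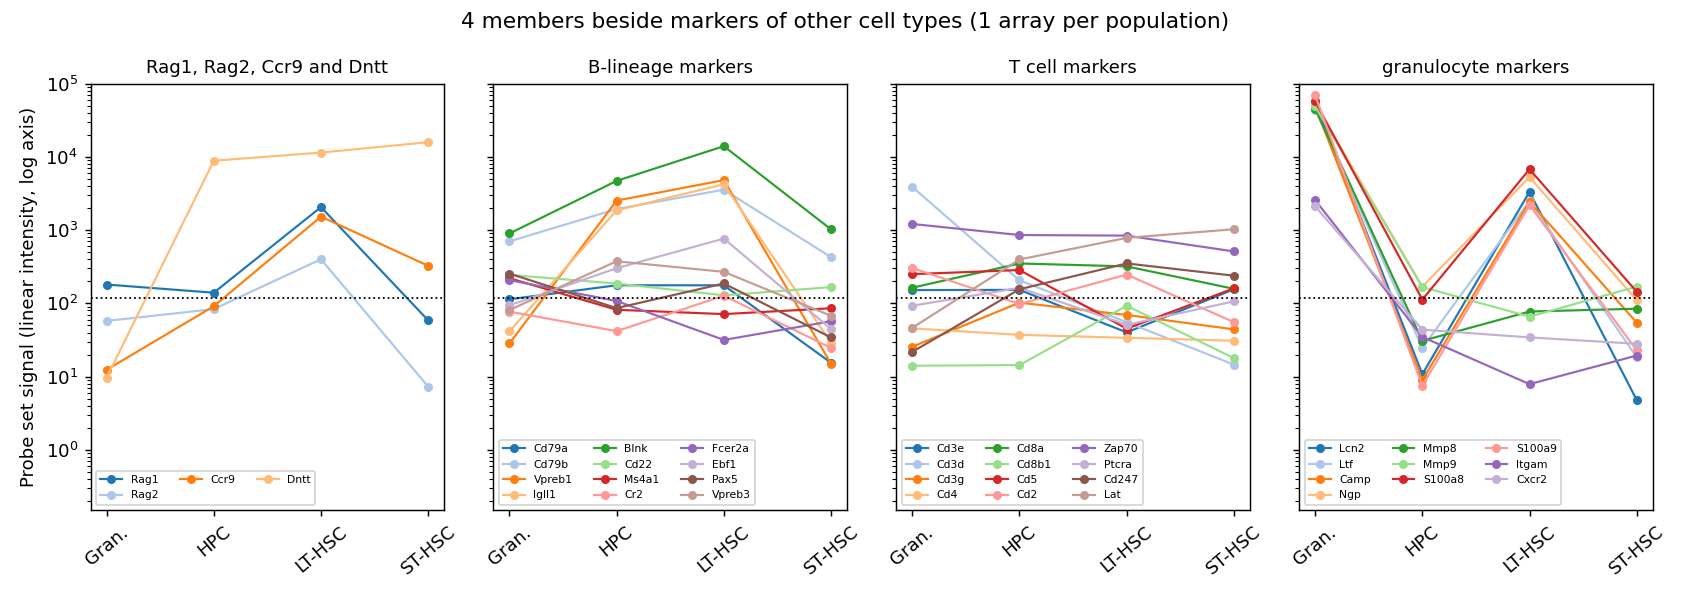
Signals (linear intensity on a log axis) of Rag1, Rag2, Ccr9 and Dntt and of the B-lineage, T cell and granulocyte marker genes on the 4 arrays, 1 point per array, with the floor of 120.1 dotted. B-lineage markers such as Vpreb1 and 6 of 10 granulocyte markers stand above the floor in LT-HSC, while T cell markers show no common peak there.

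Partners of the members were examined in 6 further lists, each gene read from 1 probe set. Their counts are to be read against the shares of all genes given above, 11.1% higher and 16.0% lower in granulocytes, 2.90% and 3.66% in HPC, and 10.4% and 7.91% in LT-HSC against ST-HSC. Of 9 measured genes that act with Rag1 and Rag2 in the cutting or rejoining of gene segments, 2 were lower in granulocytes. They were Xrcc6 (Ku70) at 243 against 1825 to 2376 and Prkdc, the DNA-dependent kinase, at 189 against 892.5 to 1327. The ligase gene Lig4 and Nhej1 were higher there, at 336 and 395 against at most 135 and 181 elsewhere. Xrcc5 (Ku80) was lower in HPC than on both stem cell arrays, at 73.6 against 260 and 432. Between the stem cell arrays 0 of 8 measured genes of this list were higher in LT-HSC, and the DNA damage kinase Atm was lower, at 211 against 1038. Their median difference between these arrays was -0.62 log2 units.

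Of 13 measured genes of interleukin 7 and Flt3 signalling, 4 were lower and 1 higher in granulocytes, 2 were lower in HPC than in both stem cell arrays, and 4 were higher and 1 lower in LT-HSC than in ST-HSC. The 1 of 13 higher in granulocytes is under the share over all genes. Stat5a, a transcription factor activated by both receptors, had 307 in granulocytes and 984 in HPC, with 2525 in LT-HSC and 835 in ST-HSC. Its target Cish had 526, 2177, 3579 and 2572. Crlf2, which pairs with Il7r to bind the cytokine TSLP, was brightest in granulocytes at 16499 against 3007 to 7636. Bcl2, the survival gene, was lower in LT-HSC than in ST-HSC, at 248 against 545.

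Of 29 measured Notch pathway genes, 4 were higher and 4 lower in granulocytes, near the shares over all genes. Notch2 had 8881 in granulocytes against 1358 to 2771 and the Notch antagonist Numb 11611 against 1794 to 3492, each at least 3.20-fold above every other array. Dtx4 and the feedback gene Nrarp were lower, at 160 against 787 to 2221 and 36.8 against 439 to 938. Between the stem cell arrays 4 of 27 were higher in LT-HSC, among them Jag2 at 1027 against 489, and 1 was lower. Dtx4 was higher and Mfng lower in HPC than on both stem cell arrays, and the list's medians were -0.03, 0.10 and 0.13 log2 units for granulocytes, HPC and the stem cell arrays.

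Of 32 measured lymphoid transcription factors, 12 were lower and 3 higher in granulocytes, with a median of -0.70 log2 units against -0.04 for all genes. Mef2c, a lymphoid priming factor, had 919 in granulocytes and 7559 to 11916 elsewhere, the E protein gene Tcf12 279 and 2221.5 to 3493, and Runx1 9.7 and 1336 to 1873. Spi1 (PU.1), Id2 and Nfil3 were higher in granulocytes, Nfil3 at 4553 against 11.6 to 431. Between the stem cell arrays 8 of 31 were higher in LT-HSC and 0 lower. The B-cell coactivator gene Pou2af1 had 3276 in granulocytes and 1178 in HPC, with 4086 in LT-HSC and 59.9 in ST-HSC. In the same order Irf4 had 2717.5, 1620, 3337 and 18, and Lef1 291, 635, 1546 and 97.1. Pou2af1 and Irf4 were thus bright in granulocytes too. Ebf1, the factor that fixes B-cell fate, had 94.1 in granulocytes and 302 in HPC, with 767 in LT-HSC and 44.7 in ST-HSC. Like Rag1, Ebf1 and Lef1 were at least 2-fold higher in LT-HSC than on each of the other arrays.

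Of 13 homing and early lymphoid surface genes, 3 were higher and 1 lower in granulocytes, with a median of 0.75 log2 units. The higher ones were Cd24a at 40759 against at most 13935, Cd53 at 18830 against at most 7368 and Selplg at 16993 against at most 7175.5. The lower one was Cd27, a marker of lymphoid progenitors, with 6.4 in granulocytes and 734 in HPC, with 1171 in LT-HSC and 1624 in ST-HSC. It thus followed the direction of Dntt. Between the stem cell arrays 4 were higher in LT-HSC, among them the homing receptor gene Cxcr4 at 5240 against 1057. Cxcr4 was at 5913.5 in granulocytes and 1443 in HPC. Ly6d, known from B-primed lymphoid progenitors, was higher in LT-HSC too, at 916 against 431. Cd53, a leukocyte tetraspanin gene, was lower in LT-HSC than in ST-HSC, at 2903 against 7040, and than on each other array. Of 14 genes for partners of Ikaros in chromatin complexes, 6 were lower and 0 higher in granulocytes, with a median of -1.01 log2 units. Chd3 had 66.6 in granulocytes and 701 to 934.5 elsewhere, and Hdac2 had 209 and 3806 to 6442. None of the 14 differed by 2-fold between HPC and both stem cell arrays or between LT-HSC and ST-HSC.

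**Figure D4:**
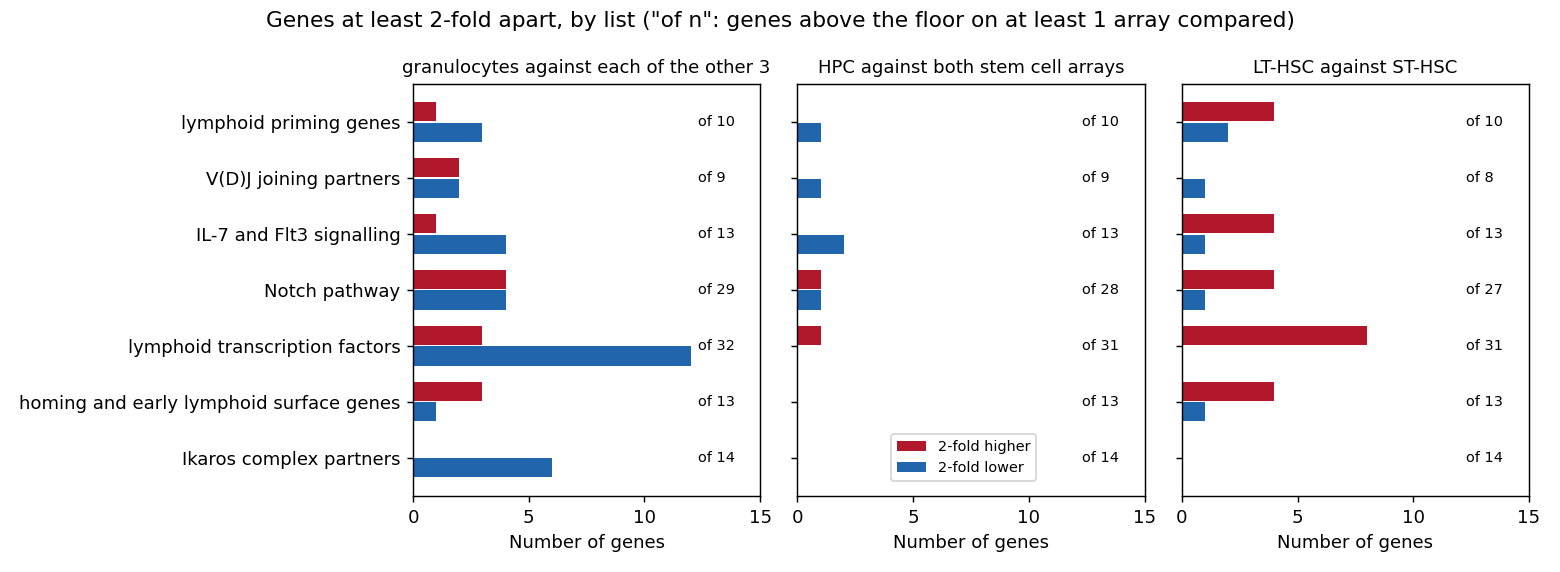
Number of genes at least 2-fold higher (red) or lower (blue) in each list for the 3 comparisons, with the number above the floor on at least 1 compared array given as "of n". Lymphoid transcription factors have 12 lower genes in the granulocyte panel and 8 higher genes in the LT-HSC panel.

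The genes whose profile over the 4 arrays lay closest to that of a member were ranked by Euclidean distance of centred log2 signals among 8786 genes. Closest to Rag1 were LOC102631979, Prr5l and Nckap1, at 0.46, 0.48 and 0.68 log2 units. Prr5l is also a neighbour of the recombinase genes, since the protein-coding genes in RefSeq run in the order Iftap, Rag2, Rag1, Traf6, Prr5l and Commd9. Prr5l had a signal of 131 in granulocytes and 122.9 in HPC, with 1342.5 in LT-HSC and 48.2 in ST-HSC. Its other probe sets, at 4.7, 34.9, 934 and 9.3 and at 201, 99.1, 412 and 103, were highest in LT-HSC too. Traf6, which lies between them, had 632, 783, 1250 and 1301.5, and Iftap, on the other side, 636.5, 1029.5, 1283 and 1679, neither of them highest in LT-HSC. Commd9, beyond Prr5l, had 162.5, 2090, 3210 and 798 and was highest in LT-HSC, 1.54-fold above the next array. Closest to Ccr9 were Hoxb5os, Cadps2 and Slc16a9 (0.21 to 0.49), and closest to Flt3 were Dph5, Dis3 and Gpr171 (0.15 to 0.21). Dntt had no neighbour nearer than Hadh at 0.51, followed by Fkbp1a and Armcx2. Sox4 was closest to Atg4c, Ncoa7 and Rhobtb3, Il7r to Plbd2, Ndufs4 and Zfp267, and Notch1 to 1810044D09Rik, Cdc34 and Snx12. Satb1 was closest to Spryd3, Sh3bp5l and Tmbim6, and Ikzf1 to Gm20324, Ccng2 and Dclre1b. With 4 arrays many genes share a profile, so these likenesses describe the arrays only.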

How the data were processed

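Per the labels' protocols, batches of 50 or 100 cells were placed in emptied zonae pellucidae, RNA of 50 to 200 cells was extracted, and it was linearly amplified in 2 rounds. Biotin was attached through aminoallyl groups. Such amplification primes from the 3′ end. The values the authors deposited are intensities, 1 per probe set, not logged. The software that summarised probes is not given here. Of 45101 probe sets, 64 controls were left out. GEO's platform annotation gave 1 symbol for 34945 of the rest, several for 932 and none for 9160. Of those with 1 symbol, 34741 matched RefSeq (GRCm38.p6) by Entrez number, and 0 symbols changed. Signals were set to the floor, then log2 was taken of the deposited values. The size of a difference was the smallest over the reference arrays where all had 1 sign, otherwise 0, and 2-fold counted. "At least" marks a fold whose dimmer array was under the floor. List medians are against the mean of the reference arrays, over genes above the floor on at least 1 array compared.

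The members, lists and comparisons were chosen with earlier results of these data known. Named from the lists were called genes among the 3 largest in each direction, plus a few chosen after their values were seen (Ebf1, Cd3e, Cd3d, Cd3g, Cd247, Zap70, Lat, Ms4a1, Fcer2a, Cd22, Cr2, S100a8, Lcn2, Traf6, Iftap and Commd9 among them). For likeness, the highest signal had to reach the pooled 75th percentile. Alternatives changed the floor, the probe set, the scaling or the threshold. A trial on simulated data used larger changes, brighter genes and less noise than many comparisons here, so it does not measure their error. The procedure was run in Python 3.11.15 with pandas 2.3.3, numpy 2.4.6, matplotlib 3.10.9 and scipy 1.17.1.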

Additional observations from a re-analysis of the deposited data

How the results depend on the processing

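The count of 3 members lower in granulocytes stayed between 2 and 4 under every alternative, and that of 3 members higher in LT-HSC than on each other array between 2 and 3. In the latter count Rag2 was lost with the floor at the 75th percentile or at 4-fold. Ccr9 was lost with the median over probe sets, the first probe set by name or probe sets without a suffix. The count of 1 member higher in granulocytes became 2 with the first probe set by name and 0 when scaled to the hybridization controls, after quantile normalization, or at 4-fold. With the median over probe sets the 1 was Notch1, not Satb1. The count of 1 member lower in HPC became 0 with the floor at the 75th percentile, with probe sets without a suffix, or at 4-fold. It stayed at 1 with the median over probe sets (Dntt) and the first probe set by name (Sox4), but Ccr9 was 0 in both. It became 2 without the LT-HSC array, an alternative added after the data were seen, where the count higher in HPC became 1. Leaving out a reference array can keep or raise these counts but cannot lower them. The count of 4 members higher in LT-HSC than in ST-HSC became 2 with the floor at the 75th percentile, with the median over probe sets, or at 4-fold. The count of 2 members lower in LT-HSC became 1 with the median over probe sets or the first probe set by name, and 0 when scaled to the hybridization controls or at 4-fold. Among single-gene differences past 2-fold, 1 changed sign, that of Sox4 between LT-HSC and ST-HSC, at 0.055 log2 units with the first probe set by name, a different probe set. Of 240 values for single genes, 212 moved by less than the yardstick and 27 by more. Dntt and Flt3 in granulocytes and Rag1 between the stem cell arrays were past 2-fold in all 8 alternatives each. Flt3, Rag1 and Rag2 have 1 probe set each, so the alternatives that change the probe set could not move them. Those values are counted among the 212. No paired analysis was possible because each population has 1 array. Rag2 and Il7r lay within 4-fold of the floor wherever measured, which limits their folds.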
